A study of Mus musculus with 9 samples.

Results

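The unfolded protein response and the chaperones of the endoplasmic reticulum (ER) were followed in macrophages sorted from mouse tumours. The set was chosen by gene symbol, from knowledge of the pathway, and all 32 listed genes were found among the 18042 gene symbols of the deposited table. It holds the stress sensors Atf6, Ern1 and Eif2ak3 with the transcription factor gene Xbp1, 10 chaperone and co-chaperone genes, 4 protein disulphide isomerases, 9 genes of ER-associated degradation, 2 genes of secreted ER stress proteins and 3 genes of translocation and ER export. In the study, 1000000 MC38 cells, a mouse colon carcinoma line, were placed under the skin of female C57BL/6 mice of wild-type genotype that were 6 to 8 weeks old. From day 9 the tumours were injected with OMVs, with IN@OMVs, each at 12.5 µg of vesicle protein per mouse (625 µg per kg of body weight), or with an equal volume of solvent, named PBS in the library descriptions (Control). OMVs commonly abbreviates outer membrane vesicles, particles that bacteria release, and the labels do not spell out IN. Macrophages positive for CD11b and F4/80 were then sorted from the tumours and RNA was sequenced in 3 biological replicates per group. All groups share the tumour line and the route of injection, and the labels do not say whether 1 replicate is 1 mouse or a pool.

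Proteins that enter the secretory pathway fold inside the ER with the help of chaperones, and the unfolded protein response adjusts that capacity to the load. The sensor proteins IRE1 (gene Ern1), PERK (gene Eif2ak3) and ATF6 are held inactive by the chaperone BiP (gene Hspa5). Activated IRE1 splices Xbp1 mRNA, ATF6 is cut to release a transcription factor, and PERK slows translation while favouring the factor ATF4. These factors raise genes for chaperones and for the degradation machinery, and many such genes carry an ER stress response element in the promoter. Counts per gene, as used here, show neither the splicing of Xbp1 nor the cutting or phosphorylation of the sensor proteins.

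The promoters of the members are shown first, since the best known shared feature of the genes is written there. In RefSeq promoter windows of the assembly GRCm38.p6, which run from 250 bases before the annotated start to 50 bases after it, 27 of the 32 members had a window. Hyou1, Manf, Atf6, Derl1 and Hspa13 had none. The ER stress response element (ERSE, the letters CCAAT, then 9 bases of any kind, then CCACG, searched on both strands) had an exact match in 9 of these 27 members (33.3%), against 24 of all 14098 genes of the table with a window (0.17%), the members included. The shorter ERSE-II (ATTGG, 1 base of any kind, CCACG, both strands, no overlap with an ERSE in these windows) matched in 2 of 27 members (7.41%) and in 10 of 14098 genes (0.0709%). The members were chosen by name from knowledge of a pathway whose genes often carry such elements. This share is therefore no independent result about them. A match is a run of letters, not a measured binding site. Each ERSE is printed 5′ to 3′ with 5 bases on either side, in the orientation that reads CCAAT first, and capitals mark the fixed letters:
Calr: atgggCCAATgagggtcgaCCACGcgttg
Canx: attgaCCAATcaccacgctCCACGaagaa
Creld2: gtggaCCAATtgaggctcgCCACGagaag
Derl3: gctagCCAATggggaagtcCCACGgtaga
Dnajc3: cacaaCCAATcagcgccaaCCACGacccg
Hsp90b1, nearer copy: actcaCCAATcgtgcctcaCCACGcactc
Hsp90b1, farther copy: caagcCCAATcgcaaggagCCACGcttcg
Hspa5: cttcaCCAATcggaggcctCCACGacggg
Pdia6: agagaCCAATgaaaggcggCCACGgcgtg
Syvn1: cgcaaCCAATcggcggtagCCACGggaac

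Both ERSE-II matches are printed in the same way, that of Herpud1 with 5 bases on either side and that of Dnajb11 alone because it lies 7 to 17 bases after the start:
Dnajb11: ATTGGcCCACG
Herpud1: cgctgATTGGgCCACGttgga

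The elements of Calr, Creld2 and Derl3 and the nearer copy of Hsp90b1 lie on the strand opposite to the gene. Hsp90b1 is the 1 member with a pair of exact copies, at 212 to 194 and at 107 to 89 bases before the start. In Hspa5 the element lies 65 to 47 bases, in Syvn1 44 to 26 bases and in Herpud1 52 to 42 bases before it. The 200 bases before the start of these 3 genes are given because each of them rose in at least 1 comparison below. Capitals mark the fixed letters of the elements and, in Herpud1, also a match to TTGCATCA, a motif of the kind bound by ATF4 (112 to 105 bases before the start):
Hspa5, chr2:34771890-34772089, plus strand: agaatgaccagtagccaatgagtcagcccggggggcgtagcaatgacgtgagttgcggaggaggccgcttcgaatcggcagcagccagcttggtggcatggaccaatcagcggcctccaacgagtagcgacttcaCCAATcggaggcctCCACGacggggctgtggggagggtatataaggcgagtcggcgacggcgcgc
Herpud1, chr8:94386229-94386428, plus strand: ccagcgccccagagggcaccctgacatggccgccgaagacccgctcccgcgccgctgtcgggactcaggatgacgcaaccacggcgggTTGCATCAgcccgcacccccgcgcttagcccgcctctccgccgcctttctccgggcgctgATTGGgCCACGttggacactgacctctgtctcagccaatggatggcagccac
Syvn1, chr19:6046376-6046575, plus strand: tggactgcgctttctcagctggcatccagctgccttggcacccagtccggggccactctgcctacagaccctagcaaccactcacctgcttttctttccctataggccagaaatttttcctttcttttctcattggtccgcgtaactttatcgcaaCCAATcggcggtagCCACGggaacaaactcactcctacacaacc

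TTGCATCA was searched on both strands too and Herpud1 was the 1 member of 27 that held it (3.7%, against 0.78% of 14098 genes). The core TGACGTGG of another element of the response matched in Sec24d alone (3.7%, against 0.943%). In the window of Dnajb9, the remaining gene that rose, none of the 4 motifs matched exactly.

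**Figure D1:**
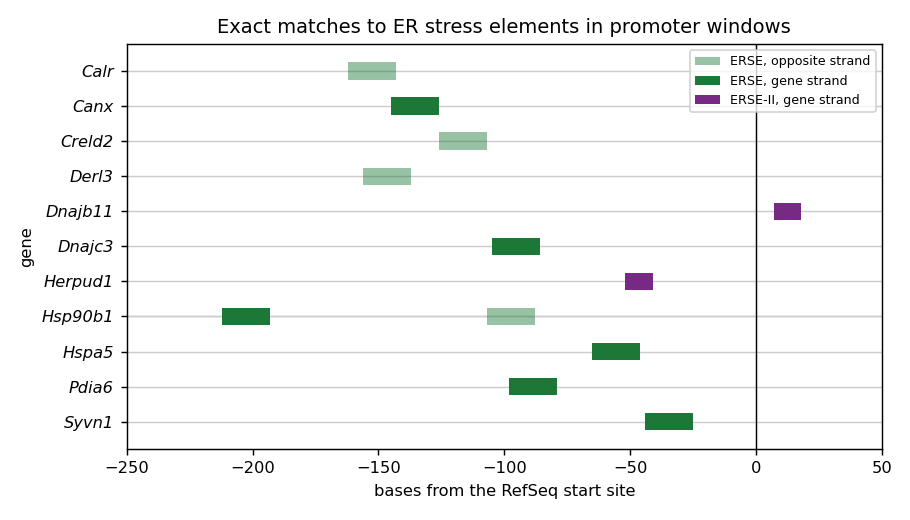
Position of each exact ERSE (green) and ERSE-II (purple) match in the promoter windows of 11 members. The x axis gives bases from the RefSeq start site and pale bars lie on the strand opposite to the gene. All matches but that of Dnajb11 lie before the start, the farthest at 212 bases in Hsp90b1.

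The libraries held 16813230 to 17288322 expected counts (estimated reads per gene), and levels are given as CPM, the count scaled to the adjusted size of its library. Of the 32 members 31 passed the filter on low counts. Derl3, a degradation gene typical of plasma cells, held 5 to 8 counts per library (0.287 to 0.477 CPM) and was not tested. The sort markers were present in all libraries. Itgam (CD11b) stood at 1726 to 1798 CPM in Control, 1501 to 1896 in OMVs and 1080 to 1480 in IN@OMVs. Every IN@OMVs library was thus below all others for Itgam, which was not called in edgeR. Adgre1 (F4/80) stood at 384 to 617 CPM, with groups that overlapped. Markers of other cells were present too and moved with the groups or with single libraries. The summed CPM of 10 neutrophil markers was 789 to 1159 in Control, 564 to 749 in OMVs and 130 to 197 in IN@OMVs, and 8 monocyte markers summed to 2636 to 2907, 1896 to 2240 and 1264 to 1487. The 11 T cell markers summed to 283 to 328 in the libraries numbered 1 and to 101 to 186 in the other 6, and 9 fibroblast markers (Thy1 is in both lists) to 1491 in IN@OMVs 1 and to 3356 to 5657 in the other 8. Plasma cells are rich in ER chaperones, and their markers Jchain and Mzb1 stood at up to 14 and up to 1.37 CPM, with Tnfrsf17 at 0 in 6 libraries. Other markers of the list were higher, with Prdm1 at 16.0 to 24.8 CPM. Sdc1 stood at 80.3 to 82.3 CPM in Control, 76.8 to 85.9 in OMVs and 37.0 to 59.7 in IN@OMVs. Of the 4 plasma cell markers tested, 1 was called lower in IN@OMVs against Control and 1 against OMVs. The 7 plasma cell markers in the table, of which Xbp1 and Derl3 are members themselves, summed to 302 to 339, 309 to 355 and 260 to 300 CPM in the 3 groups. Xbp1 and Sdc1 made up most of each sum. The part of these cells in the results below was not tested, and in bulk RNA fewer cells of a type cannot be told apart from less RNA per cell.

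Each treated group was first set against Control, and the results are differences between groups in bulk RNA of sorted cells. After OMVs 1 member rose, Herpud1, and none fell, where 0.42% of all 13090 genes tested were called (0.298% as higher and 0.122% as lower). After IN@OMVs 4 members rose, Herpud1, Dnajb9, Syvn1 and Hspa5, and none fell, where 6.55% of all genes were called (3.32% as higher and 3.24% as lower). These are 3.23% and 12.9% of the 31 members tested. In groups without overlap, 14 members were higher and 1 lower in OMVs than in Control (45.2% and 3.23%, against 9.89% of all genes in each direction), and 11 were higher and 1 lower in IN@OMVs (35.5% and 3.23%, against 13.3% and 12.5%). An unadjusted p under 0.05 was found for 14 members after OMVs (45.2%, against 8.44% of all genes) and for 10 after IN@OMVs (32.3%, against 19.8%). Fold changes were positive for 23 members after OMVs (74.2%, against 49.8%) and for 22 after IN@OMVs (71%, against 49.5%). DESeq2 called 6 members after OMVs, where it called 207 of all genes (1.58%), and added Hspa5, Syvn1, Pdia4, Creld2 and Hsp90b1 to Herpud1. After IN@OMVs it also called 6, adding Sdf2l1 and Manf, where it called 1184 of all genes (9.05%). The median log2 fold change of the members was 0.12 after OMVs and 0.09 after IN@OMVs, and over all genes it was 0.00 in both (-0.00049 and -0.0024). Both comparisons use the same 3 Control libraries. A gene counts as changed when its adjusted p in edgeR's quasi-likelihood test was below 0.05.

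Herpud1, which encodes a membrane protein that gathers the ER degradation machinery, changed most among the 31 members after either treatment. It stood at 69.7, 63.9 and 65.0 CPM in Control 1, 2 and 3, at 84.8, 91.8 and 90.9 CPM in OMVs and at 105, 99.3 and 96.2 CPM in IN@OMVs. The 3 groups did not overlap, with every OMVs library above Control and every IN@OMVs library above OMVs. The log2 fold change was 0.43 ± 0.06 (SE) after OMVs (adjusted p = 0.0267), a rise of 34.7%, and 0.60 ± 0.06 after IN@OMVs (adjusted p = 0.000605), a rise of 51.6%. The second call held in all 18 alternative analyses (adjusted p up to 0.00626). The call after OMVs ended with the replicate number as a block (adjusted p = 0.0759) and without IN@OMVs 3, OMVs 2, OMVs 3 or any 1 of the Control libraries (adjusted p from 0.0572 to 0.191), at a log2 fold change of 0.40 to 0.47 over the omissions.

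Syvn1 encodes HRD1, the ubiquitin ligase at the centre of ER-associated degradation. Its level was 54.3, 56.2 and 53.7 CPM in Control, 67.1, 67.9 and 66.3 CPM in OMVs and 72.7, 67.5 and 65.6 CPM in IN@OMVs. Both treated groups lay wholly above Control and overlapped each other. Syvn1 rose after IN@OMVs by 0.33 ± 0.05 on the log2 scale (adjusted p = 0.00658), or 25.3%, and without Control 3 the adjusted p was 0.0512. After OMVs the log2 fold change was 0.29 ± 0.05 with an adjusted p = 0.0615, which became 0.0112 without IN@OMVs 1. It passed there in 6 of 18 alternative analyses, and over all 18 the adjusted p reached 0.358.

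Dnajb9 encodes ERdj4, a co-chaperone of BiP that acts on IRE1 and on degradation. In Control 1, 2 and 3 it was measured at 31.2, 33.1 and 34.6 CPM, in OMVs at 37.6, 38.3 and 42.1 CPM and in IN@OMVs at 48.8, 41.3 and 43.0 CPM. Treated libraries were all above Control, and OMVs 3 lay within the range of IN@OMVs. The rise after IN@OMVs was 0.43 ± 0.08 (adjusted p = 0.0148), or 34.4%, and the value after OMVs was 0.25 ± 0.08 (adjusted p = 0.338). Without any 1 of the Control libraries the adjusted p of the first was 0.0502 to 0.0653.

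Hspa5, the gene of BiP itself, was measured at 1064, 1059 and 1102 CPM in Control, 1397, 1360 and 1453 CPM in OMVs and 1465, 1286 and 1311 CPM in IN@OMVs. No treated library fell to the highest Control value, and the treated groups overlapped. Hspa5 rose after IN@OMVs (0.33 ± 0.07, adjusted p = 0.0196, or 25.9%). After OMVs the estimate was larger, 0.38 ± 0.07 or 30.5%, and did not pass (adjusted p = 0.0574), although the unadjusted p was smaller (0.000268, against 0.000734 after IN@OMVs). Left without 1 Control library the call after IN@OMVs ended (adjusted p = 0.0826 to 0.0967), as it did in a fit of both groups alone (0.0624). For OMVs the gene passed in 6 of 18 alternative analyses, among them the fit without IN@OMVs 1 (0.0047) and DESeq2 (3.89e-07). Over all 18 its adjusted p reached 0.324. Reads of Hspa5 were fractional in all 9 libraries, by at most 0.00169% of the count.

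**Figure D2:**
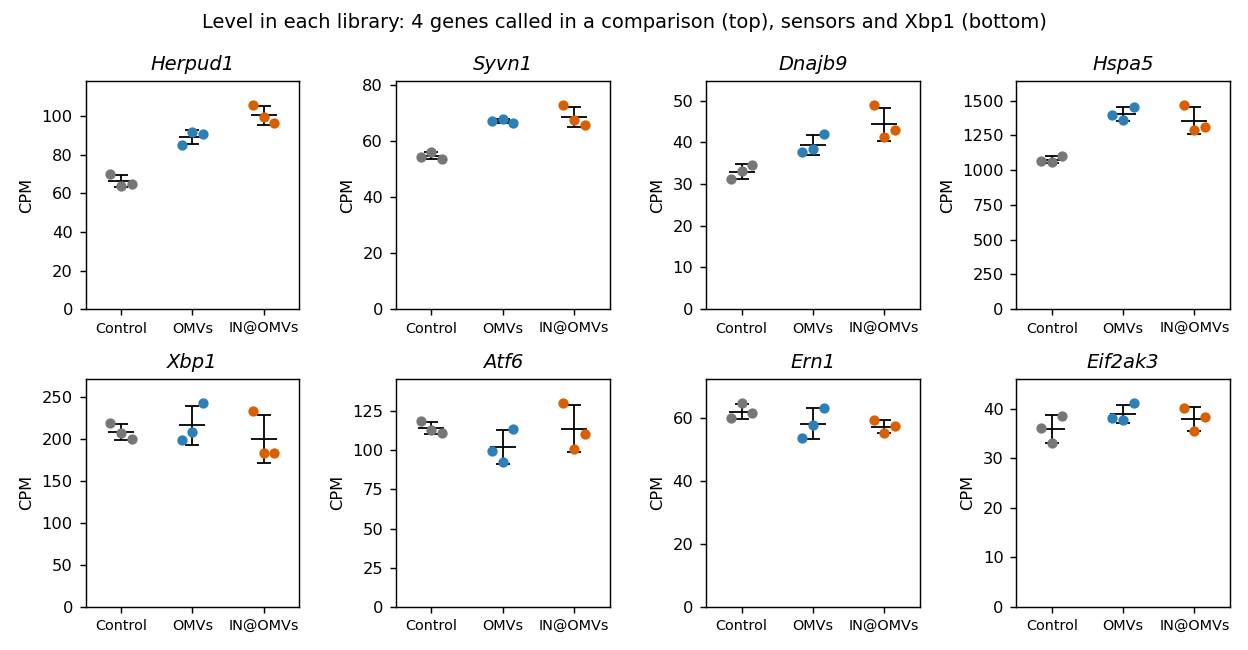
CPM in each library (points), with mean and SD over 3 libraries (black), for the 4 genes that rose in a comparison (top) and for Xbp1 and the sensor genes (bottom). In the top row every treated library lies above every Control library, while in the bottom row treated and Control libraries overlap except for Ern1 in IN@OMVs.

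The genes of the sensors and Xbp1 did not pass in any comparison. Xbp1 stood at 219, 208 and 200 CPM in Control, 199, 209 and 243 CPM in OMVs and 234, 184 and 184 CPM in IN@OMVs, and its log2 fold changes against Control were 0.05 ± 0.11 and -0.06 ± 0.11. Its groups overlapped fully, with OMVs 3 and IN@OMVs 1 as the highest libraries. Atf6 was at 119, 113 and 111 CPM in Control, 99.4, 92.5 and 114 CPM in OMVs and 130, 101 and 110 CPM in IN@OMVs (-0.17 ± 0.10 and -0.01 ± 0.10). The highest library was again IN@OMVs 1. Ern1, which encodes IRE1, was at 59.7, 64.5 and 61.4 CPM in Control, 53.4, 57.7 and 63.0 CPM in OMVs and 59.1, 55.1 and 57.2 CPM in IN@OMVs. All IN@OMVs libraries were below all Control libraries, but the difference of -0.12 ± 0.07 did not pass (adjusted p = 0.402). Eif2ak3, which encodes PERK, was at 36.2, 33.0 and 38.6 CPM in Control, 38.1, 37.6 and 41.1 CPM in OMVs and 40.2, 35.4 and 38.3 CPM in IN@OMVs. The 95% intervals bound changes of these 4 genes after IN@OMVs to between -0.31 and 0.25 on the log2 scale, and after OMVs to between -0.40 and 0.30.

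The other chaperones of the Hsp70 and Hsp90 class and the lectin chaperones did not pass in edgeR in any comparison. Hsp90b1, which encodes GRP94, went from 1094 ± 42.4 CPM (SD, n = 3) in Control to 1246 ± 40.3 in OMVs and 1118 ± 43.1 in IN@OMVs (log2 fold change 0.19 ± 0.06, adjusted p = 0.341, and 0.03 ± 0.06). All OMVs libraries lay above all 6 others, and neither difference from Control passed in edgeR. Hyou1, an ER chaperone that also exchanges nucleotide on BiP, stood at 174 ± 5.11, 200 ± 6.93 and 196 ± 19.0 CPM (0.20 ± 0.07 and 0.17 ± 0.07), without overlap of either treated group with Control. Calr, the calcium-binding lectin chaperone calreticulin, was at 1073 ± 36.2, 1221 ± 73.2 and 1142 ± 118 CPM, and its membrane relative Canx at 718 ± 49.6, 747 ± 11.8 and 691 ± 30.3 CPM. Hspa13, an Hsp70 relative, differed by 0.01 after OMVs and -0.10 after IN@OMVs.

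The co-chaperone gene Sdf2l1 had the widest spread of the members that lay above Control. It measured 48.4, 46.1 and 50.9 CPM in Control, 62.6, 62.0 and 68.6 CPM in OMVs and 86.1, 59.1 and 60.5 CPM in IN@OMVs, so that 1 IN@OMVs library stood far above the other 2 and all treated libraries lay above Control. The log2 fold change was 0.41 ± 0.13 after OMVs (adjusted p = 0.361) and 0.50 ± 0.13 after IN@OMVs (adjusted p = 0.0628). Without IN@OMVs 1 the second fell to 0.30 and passed (adjusted p = 0.0139). Dnajb11 and Dnajc3, the J domain co-chaperones ERdj3 and P58IPK, differed by 0.02 to 0.12 in either comparison with Control, with overlapping groups.

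The protein disulphide isomerases, which form and rearrange disulphide bonds in folding proteins, did not pass in edgeR with all libraries in any comparison. Pdia4 was at 198, 201 and 212 CPM in Control, 234, 258 and 283 CPM in OMVs and 252, 222 and 232 CPM in IN@OMVs, with both treated groups above Control. Its log2 fold changes were 0.34 ± 0.08 (adjusted p = 0.167) and 0.21 ± 0.08 (adjusted p = 0.177). Pdia3 (0.16 ± 0.06) and Pdia6 (0.20 ± 0.07) were above Control in all OMVs libraries as well, and in IN@OMVs Pdia3 did not overlap with Control (0.11 ± 0.06) and Pdia6 did (0.09 ± 0.07). P4hb stood at 896 ± 12.3, 873 ± 36.6 and 859 ± 50.8 CPM.

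Of the secreted ER stress proteins, Manf measured 154 ± 5.73 CPM in Control, 177 ± 13.3 in OMVs and 189 ± 18.9 in IN@OMVs (0.20 ± 0.08 and 0.29 ± 0.08, adjusted p = 0.542 and 0.0771). Creld2 measured 47.3, 47.5 and 43.3 CPM in Control, 54.5, 57.4 and 55.3 CPM in OMVs and 56.2, 53.9 and 49.0 CPM in IN@OMVs (0.28 ± 0.06 and 0.20 ± 0.06, adjusted p = 0.174 and 0.109). Both genes lay above every Control library in both treated groups, and neither passed in edgeR with all libraries. DESeq2 called Creld2 after OMVs (adjusted p = 0.0468) and Manf after IN@OMVs (adjusted p = 0.0237). Without IN@OMVs 1 edgeR also called Creld2 after OMVs (adjusted p = 0.0475).

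Within ER-associated degradation, the 2 genes that rose, Herpud1 and Syvn1, stood apart from the other 6 tested. Derl2, a channel protein of the machinery, was above Control without overlap after both treatments (0.12 ± 0.05 and 0.15 ± 0.05, adjusted p = 0.483 and 0.111). Edem1 and Os9, lectins that select glycoproteins, the adaptor Sel1l, the channel protein Derl1 and the membrane protein Selenos had log2 fold changes of -0.10 to 0.09 against Control, with groups that overlapped. In translocation and export, all 3 genes were lower after OMVs (-0.14 to -0.05) and none passed. Ssr1, a subunit of the translocon-associated complex, was at 260 ± 10.2 CPM in Control and 236 ± 7.26 in OMVs, the 1 member with all OMVs libraries below Control (-0.14 ± 0.05, adjusted p = 0.478). Sec61b, a translocon subunit, and Sec24d, a coat protein of vesicles leaving the ER, overlapped in all comparisons.

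**Figure D3:**
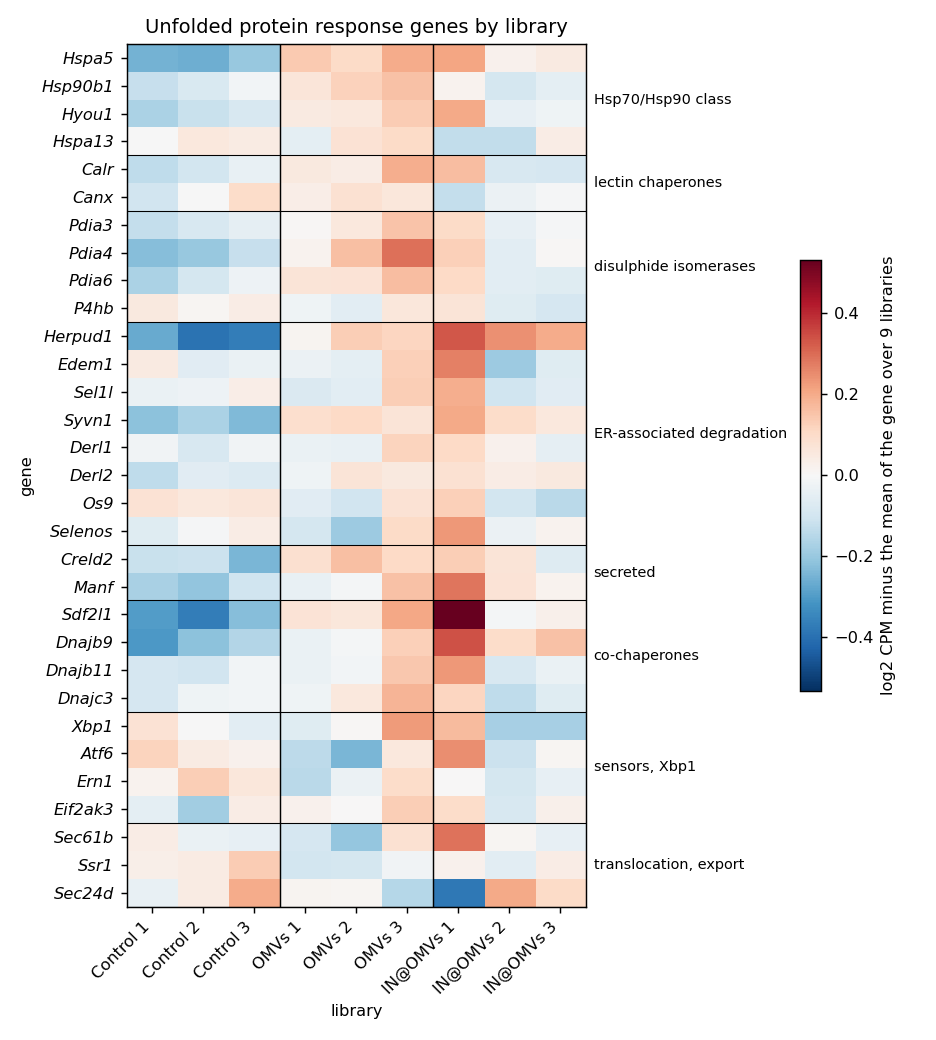
Each row is 1 of the 31 tested members, each column a library, and colour gives log2 CPM minus the mean of that gene over the 9 libraries. Control libraries are below the mean for Hspa5, Herpud1, Syvn1, Dnajb9 and Sdf2l1, and the column of IN@OMVs 1 is redder than those of IN@OMVs 2 and 3 for most rows but blue for Sec24d, Canx and Hspa13.

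The median over all members in IN@OMVs depended on a single library. The median deviation of the 31 members from the gene means was 0.13 in IN@OMVs 1, against -0.05 and -0.01 in IN@OMVs 2 and 3. It was -0.09, -0.08 and -0.03 in Control and -0.02, 0.01 and 0.13 in OMVs, with OMVs 3 and IN@OMVs 1 as the highest libraries. The same libraries were highest in the summed CPM of 10 macrophage markers (15001 and 17207, against 11340 to 14014 in the other 7) and lowest in the TMM scaling factor (0.969 and 0.946, against 0.998 to 1.02). As a share of unscaled counts the members made up 0.966% in IN@OMVs 1, below the 0.979% to 1.01% of the OMVs libraries. IN@OMVs 2 and 3 were at 0.927% and 0.941%, so all IN@OMVs libraries lay above the 0.876% to 0.924% of Control. The part of these differences in the member medians was not tested. Over all genes tested the same median was 0.00020 to 0.0093 in every library. Without IN@OMVs 1 the median fold change of the members after IN@OMVs fell from 0.09 to 0.0011 and 16 of 31 were positive, against 22 with it. The members called were then 5 of 31, Herpud1, Dnajb9, Syvn1, Hspa5 and Sdf2l1, where 12.4% of all genes were called. With all libraries numbered 1 left out the same 5 were called, where 11.3% of all genes were, at a member median of -0.0033. Both shares of all genes are above the 6.55% with all libraries. For OMVs the median was 0.06 without OMVs 3 and 19 of 31 members were positive, against 23 with it. Sec24d went the other way in IN@OMVs 1, at 55.8 CPM against 65.5 to 83.5 CPM in the other 8 libraries, and that library was also the lowest in fibroblast markers. The part of those cells in its values was not tested.

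**Figure D4:**
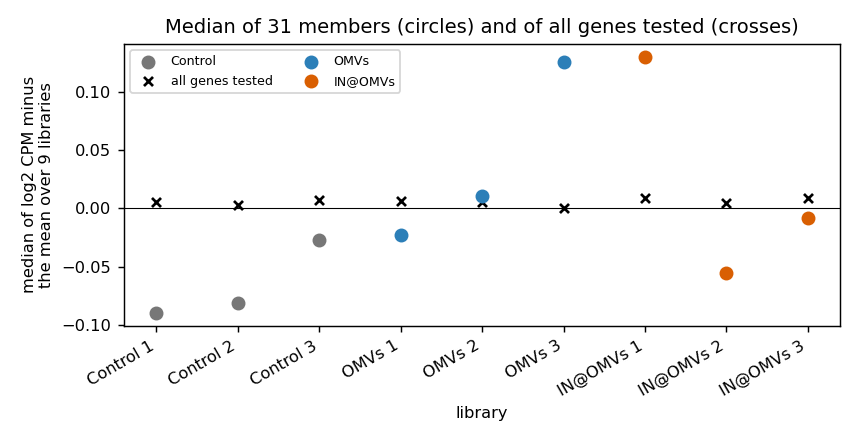
Median over 31 members (circles) of log2 CPM minus the mean of each gene over 9 libraries, with the same median over all 13090 genes tested (crosses). Control libraries lie at -0.09 to -0.03, and OMVs 3 and IN@OMVs 1 are the highest at 0.13.

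IN@OMVs and OMVs were then compared directly, at equal dose of vesicle protein. No member was called in edgeR, where 2.85% of all genes were (1.1% as higher and 1.75% as lower). An unadjusted p under 0.05 was found for 2 members, Herpud1 and Hsp90b1 (6.45%, against 14.4% of all genes). Without overlap of the groups 1 member was higher, Herpud1 (3.23%, against 8.86%), and 2 were lower, Hsp90b1 and Canx (6.45%, against 8.72%). Fold changes were positive for 15 of 31 (48.4%, against 49.1%). This count moved with single libraries, to 9 of 31 without IN@OMVs 1 and 19 of 31 without OMVs 3. With all libraries numbered 1 left out it was 7 of 31. DESeq2 called 1 of 31, Hsp90b1 (adjusted p = 0.0471), where it called 646 of all genes (4.94%). Herpud1 was higher by 0.17 ± 0.06 (adjusted p = 0.216, 95% interval 0.04 to 0.30) and Hsp90b1 lower by -0.16 ± 0.06 (adjusted p = 0.267, interval -0.29 to -0.02). All 10 tested genes of the Hsp70 and Hsp90 class, the lectin chaperones and the disulphide isomerases had a negative fold change (-0.16 to -0.02), while 7 of 8 tested genes of ER-associated degradation had a positive one (-0.01 to 0.17). Medians were -0.08 for the Hsp70 and Hsp90 class and 0.02 for degradation, and the median over all 31 was -0.01. None of these differences between roles was tested. IN@OMVs 1 was the highest of its group for each of the 8 degradation genes. Edem1 (0.00064), Derl1 (0.013) and Sel1l (0.013) were near 0, and Syvn1 was -0.013 without IN@OMVs 1. The differences of Hspa5 (-0.05 ± 0.07, interval -0.20 to 0.10), Syvn1 (0.03 ± 0.05, -0.09 to 0.15) and Dnajb9 (0.17 ± 0.08, -0.01 to 0.35) did not pass, and their intervals include both no change and changes of up to 0.35 in size. Of the sensors and Xbp1, Atf6 differed by 0.16 ± 0.10 and Xbp1 by -0.11 ± 0.11. With all libraries numbered 1 left out Xbp1 was called lower (-0.30, adjusted p = 0.0465).

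**Figure D5:**
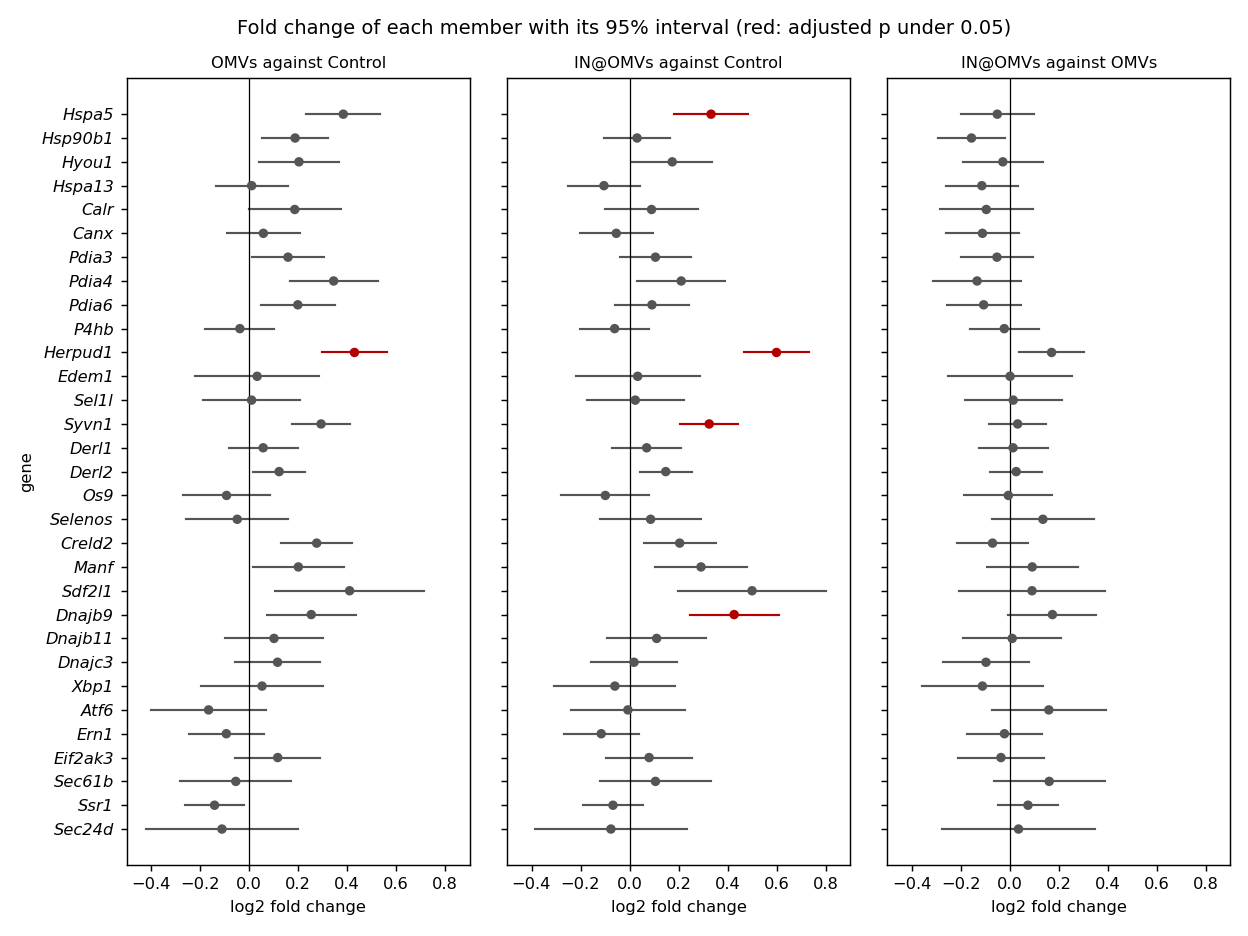
Log2 fold change with 95% interval for each of the 31 tested members in the 3 comparisons, ordered by role, with adjusted p under 0.05 in red. Herpud1 is red in both comparisons with Control, Hspa5, Syvn1 and Dnajb9 in that of IN@OMVs, and no member between IN@OMVs and OMVs. The first 2 panels share the Control libraries.

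Set beside the promoter sequences above, the 10 tested members with an exact ERSE or ERSE-II had a median log2 fold change of 0.19 after OMVs, all 10 were positive and 7 lay above Control without overlap, as did 9.89% of all genes. The 16 with a window and no exact match had a median of 0.02, with 9 positive and 5 above Control without overlap. After IN@OMVs the medians were 0.10 and 0.06, with 4 of 10 and 5 of 16 above Control without overlap (13.3% of all genes), and 3 of the 4 genes that rose, Herpud1, Hspa5 and Syvn1, hold an element. Between IN@OMVs and OMVs 3 of the 10 with an element were positive (median -0.08), as were 9 of the 16 without (median 0.01). The 5 members with no window had medians of 0.06, 0.07 and 0.01 in the 3 comparisons, with 2 above Control without overlap after either treatment. Of 23 further genes of the table with an exact match, 17 were tested, with a median of -0.01 after OMVs and -0.06 after IN@OMVs, and none rose. The 1 called gene among them, Xlr3b, fell after both treatments (-2.18 ± 0.19 and -2.23 ± 0.19, adjusted p = 0.0143 and 0.00027), and 2 near-identical relatives, Xlr3a and Xlr3c, are listed beside it, so its reads may be split among copies. These are counts without a test of one class against the other.

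Beyond the 32 members, 113 other genes of the pathway were in the table and 112 were tested, in 8 lists. After OMVs none of the 112 was called in edgeR (median -0.01). After IN@OMVs 4 of 112 rose and 2 fell (median -0.02), counts that are near or below the 3.32% and 3.24% of all genes called as higher and lower. All 4 that rose belong to the 13 genes of the PERK arm and the integrated stress response, whose median after IN@OMVs was -0.04. Fold changes were positive for 6 of these 13 after IN@OMVs. After OMVs they were positive for 11 of 13 (against 49.8% of all genes), at a median of 0.13, and none was called. Asns, Atf3, Cebpb, Ddit4, Ppp1r15a, Ppp1r15b and Sesn2 had a lower mean CPM in IN@OMVs than in Control. Ddit3, which encodes the factor CHOP, stood at 16.9, 15.5 and 14.9 CPM in Control, 19.0, 20.1 and 18.4 CPM in OMVs and 24.9, 31.7 and 26.0 CPM in IN@OMVs. The 3 groups did not overlap, and Ddit3 rose after IN@OMVs against Control (0.81 ± 0.10, adjusted p = 0.00215) and against OMVs (0.53 ± 0.10, adjusted p = 0.0294). Over the omissions of single libraries the second call remained in 2 of 9, with adjusted p up to 0.117, and in a fit of both groups alone it was 0.123, while the first held in all 9 omissions.

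Atf4, the transcription factor downstream of PERK, rose after IN@OMVs by 0.32 ± 0.07 (adjusted p = 0.0241, and 0.0524 with the replicate number as a block). It stood at 186, 178 and 177 CPM in Control, 195, 204 and 195 CPM in OMVs and 203, 237 and 238 CPM in IN@OMVs. Trib3, a pseudokinase gene induced by ATF4 and CHOP, was at 5.30, 6.20 and 4.96 CPM in Control and 5.86, 6.53 and 6.21 CPM in OMVs. In IN@OMVs it was at 7.51, 15.7 and 16.8 CPM (1.28 ± 0.27 against Control, adjusted p = 0.0243). Chac1, a glutathione-degrading enzyme gene, was at 2.21, 1.93 and 2.36 CPM in Control and 3.79, 3.67 and 2.69 CPM in OMVs. In IN@OMVs it was at 3.20, 7.98 and 7.57 CPM (1.53 ± 0.33 against Control, adjusted p = 0.0273, blocked 0.0595). All OMVs libraries lay above Control for Atf4 and Chac1, as they did for 9.89% of all genes, and overlapped with Control for Trib3. For these 3 genes IN@OMVs 1 was the lowest of its group, where for most chaperones it was the highest. These 3 calls each ended without IN@OMVs 2, IN@OMVs 3 or any 1 of the Control libraries, and that of Chac1 also without OMVs 2, and all 3 in a fit of both groups alone. Limma-voom also ended the calls of Trib3 (adjusted p = 0.0681) and Chac1 (0.0758). Over the omissions the adjusted p reached 0.106 for Atf4, 0.105 for Trib3 and 0.12 for Chac1.

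The 2 pathway genes that fell after IN@OMVs were Ganab, the catalytic subunit of glucosidase II, which trims glycans for the calnexin cycle (-0.22 ± 0.05, adjusted p = 0.0257, blocked 0.0607), and the disulphide-forming Qsox1 (-0.47 ± 0.10, adjusted p = 0.0232, blocked 0.0552). Without any 1 of the Control libraries neither passed (adjusted p up to 0.127 for Ganab and 0.085 for Qsox1), and Ganab also missed it without IN@OMVs 2, IN@OMVs 3 or OMVs 2. Between IN@OMVs and OMVs, Cnpy4, an ER-resident saposin-like protein gene, fell (-0.32 ± 0.06, adjusted p = 0.0358). That call was lost in 7 of 9 omissions, all but those of IN@OMVs 1 and Control 2. These lists were drawn up by name, with earlier results of these data known. No gene of the lists for UPR signalling (10 tested), other ER-associated degradation (17), translocon and signal peptidase (15) or COPII and COPI transport (20) was called in any comparison in edgeR, and their medians against Control lay between -0.02 and 0.0009.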

How the data were processed

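RNA of sorted macrophages, bound to oligo-dT beads, was sequenced in 9 libraries, 3 per group (Control, OMVs, IN@OMVs), and groups were taken from the sample labels. The deposited table holds expected counts (estimated reads per gene, as RSEM makes them). RSEM, Bowtie2 and BWA appear in the submitters' processing notes with no version, as do the builds mm9 and hg19 with no role. Further upstream steps are not given in the sources used here. Values were rounded to whole numbers, and genes were kept by edgeR's filterByExpr (13090 of 18042). Totals were 16813230 to 17288322 per library. The test was edgeR's quasi-likelihood test (edgeR 4.0.16, R 4.3.3) with TMM scaling, 1 mean per group over all 9 libraries, 6 residual degrees of freedom and Benjamini-Hochberg adjustment over all genes tested, at a threshold of 0.05. SE is the log2 fold change divided by the root of the F statistic. Intervals are 95% and use 8.95 total degrees of freedom for the members, as edgeR shares information on the spread across genes. P-values set a group difference against the spread between these libraries. DESeq2 1.42.0, limma-voom (limma 3.58.1), other scalings and filters, a replicate block, a fit of both groups alone and the omission of libraries were alternatives. The code was tested on simulated data.

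The members, the pathway and marker lists and the tests were chosen with earlier results of these data known. Values per library were to be given for called members and for Hspa5, Herpud1, Xbp1, Atf6, Ern1 and Eif2ak3, and up to 3 called genes with the smallest p were to be named per pathway list and comparison. Chac1 and Xlr3b, and the values per library of Sdf2l1, Pdia4, Creld2, Ddit3, Atf4 and Trib3, fall outside that rule and were added after their values were seen. The labels number the replicates 1 to 3 in each group. Deviations from the group means of libraries with the same number correlated at 0.53, 0.37 and 0.12 between OMVs and Control. Between IN@OMVs and Control they correlated at 0.45, 0.31 and 0.15, all over 0.1. Libraries with different numbers reached 0.35 (OMVs 2 with Control 3), 0.36 (IN@OMVs 2 with Control 3) and 0.29 (IN@OMVs 3 with Control 2). Against Control only the libraries numbered 1 stood apart, so pairs are not established. The block is an alternative fit, and its value is given where it changes a call. Promoter windows came from RefSeq on GRCm38.p6 and were matched by gene symbol. No coordinates of the authors' files were used.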

Additional observations from a re-analysis of the deposited data

How the results depend on the processing

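Of the 4 calls among the members after IN@OMVs, that of Herpud1 held in all 18 alternatives, and DESeq2 and limma-voom called all 4. Leaving out 1 library gave 1 to 5 members called, and the members' median ran from 0.0011 to 0.13, at -0.0033 without the libraries numbered 1. Genes called there ran from 393 to 1635 with 1 library left out (858 with all), and were 519 with both groups alone and 1475 without the libraries numbered 1. After OMVs, where 1 member and 55 genes were called, the members called were 0 with the replicate block, 3 with upper quartile scaling, 6 with DESeq2, 3 with the stricter filter (mean of at least 5 CPM), 4 with both groups alone and 5 without the libraries numbered 1, and 0 to 6 with 1 library left out. Genes called were 20 with the block, 207 with DESeq2, 36 with limma-voom, 115 with both groups alone and 313 without the libraries numbered 1, and 0 to 266 with 1 library left out. In 4 of these omissions edgeR called 0 genes, with an unadjusted p under 0.05 for 734 (OMVs 2 omitted), 942 (OMVs 3), 787 (Control 2) and 803 genes (Control 3). The cause of these differences was not tested.

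Between IN@OMVs and OMVs, with 0 members and 373 genes called, DESeq2 called 1 member and 646 genes, the fit of both groups alone 195 genes, and the fit without the libraries numbered 1 called 1 member and 844 genes at a median of -0.11. With 1 library left out the genes called were 180 to 786 and the median was -0.09 to 0.02. The replicate numbers do not establish pairs here either (correlations 0.07, 0.51 and -0.37). The block gave 306 genes and 0 members, and Cnpy4 missed the threshold with it (adjusted p = 0.0691). Against Control the block ended the calls of Herpud1 after OMVs and of Atf4, Chac1, Qsox1 and Ganab after IN@OMVs, and changed no other call among the members and named pathway genes. Signs turned in at least 1 alternative for 6 of 31 members after OMVs, 11 after IN@OMVs and 14 between IN@OMVs and OMVs. None of them was called in that comparison, and their main log2 fold changes were at most 0.05, 0.11 and 0.09 in size. Syvn1 between IN@OMVs and OMVs was -0.013 without the libraries numbered 1, and with 1 library left out ran from -0.013 to 0.063. In the same comparison Eif2ak3 ran from -0.081 to 0.011 and Ern1 from -0.079 to 0.042. Xbp1 after OMVs ran from -0.038 to 0.11 and Atf6 after IN@OMVs from -0.12 to 0.072. No called member changed sign under the 18 alternatives. Groups of 3 libraries limit all of these tests, and Derl3, at 5 to 8 counts, was too low to test.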
